A study of Mus musculus with 2 samples.

Results

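The SWI/SNF, or BAF, complexes are large remodelling machines that use ATP to slide and eject nucleosomes, and 10 genes that encode their subunits were followed here: the ATPases Smarca4 and Smarca2, the core subunits Smarcb1, Smarcc1, Smarcc2, Smarcd1 and Smarce1, and the ARID subunits Arid1a, Arid1b and Arid2. They were chosen by name, as all non-control probes that the array files assign to these symbols. This gave 19 of 39429 probes, for 10 of 31896 gene names. Smarca2, Smarcb1, Smarcc2 and Smarcd1 were each read by 1 probe, Arid1a, Smarca4 and Smarce1 by 2, and Arid1b, Arid2 and Smarcc1 by 3.

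The cells were ZHBTc4 mouse embryonic stem (ES) cells, in which both endogenous Oct4 (Pou5f1) alleles are disrupted and Oct4 comes from a transgene that doxycycline shuts off. All 3 clones were treated with doxycycline and grown without feeder cells, on gelatin, in 15% serum with 1000 IU/ml LIF. Each is a monoclonal line with a stably integrated pCAG-IP plasmid, a construct with a constitutive CAG promoter: EGFP alone (clone #2-5), Oct4-EGFP (clone #9) or Nr5a2-EGFP (clone #26). Nr5a2 is an orphan nuclear receptor known as a regulator of Oct4. On 1 two-colour oligonucleotide array, the EGFP array, the EGFP clone was labelled with Cy3 and the Nr5a2-EGFP clone with Cy5. On the other, the Oct4 array, the Oct4-EGFP clone carried Cy3 and the Nr5a2-EGFP clone again Cy5. The comparisons ask how far an Nr5a2 or an Oct4 transgene changes expression in cells whose own Oct4 supply is off.

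Each pair of clones met on 1 array with no dye swap, so the spread between cultures is unknown for every value and no test could be run. The effect of a transgene and any other difference between these clones cannot be told apart, nor can dye bias in the direct ratios. Of the spots, between 78.07% and 80.11% lay well above background in a channel. A measurement was repeated for the Nr5a2-EGFP clone alone, whose Cy5 readings on both arrays differed by a log2 SD of 0.30 over 25506 genes. The labels were not checked by the transgenes themselves. The probes of Nr5a2 had log2 ratios of -0.92 and -0.39 in the Nr5a2-EGFP clone over the EGFP clone, and of -1.14 and -0.63 over the Oct4-EGFP clone. The dim Pou5f1 probe had -0.02 in Oct4-EGFP over EGFP from the Cy3 levels, where the difference of ratios gave 0.78. The sources used here do not say whether any of them lies in transgene sequence. Of 24 pluripotency markers, 23 or 24 were well above background in every channel, Nr0b1 missing in both channels of the EGFP array and Pou5f1 in the Nr5a2-EGFP channel of the Oct4 array. Of 22 trophoblast markers, 21 were, Elf5 being the exception. So were 8 of 8 neural markers, 11 of 13 markers of fibroblasts and feeders, and 9 to 11 of 13 of primitive endoderm. Detection by this flag thus does not tell the cell types apart.

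In these complexes, a Smarca4 (Brg1) or Smarca2 (Brm) ATPase motor is joined to a core of Smarcc1, Smarcc2, Smarcd1, Smarcb1 and Smarce1. The ARID subunit decides the class of the complex: Arid1a or Arid1b in canonical BAF, Arid2 in PBAF. ES cells are known for a form of the complex, called esBAF, that is built on Smarca4 and Smarcc1 rather than on Smarca2 and Smarcc2, that binds many of the sites bound by Oct4 and Sox2, and that is needed for self-renewal.

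The array reads each transcript with 60-base probes. Those whose readings matter most below are shown by 30 of their bases, together with their mm9 positions as the files give them. The sources used here do not give the exon or untranslated region that each covers. Both Arid1a probes, Arid1a probe 1 on chr4:133235092-133235151 and Arid1a probe 2 on chr4:133236274-133236333, both on the minus strand, are shown by their first 30 bases because both gave much the same ratio. The Arid2 probes are shown because they disagree: Arid2 probe 1 lies on chr15:96235327-96235386 on the plus strand.
Arid1a probe 1: ggtgtgaaaaagttctaggttcagttgaag
Arid1a probe 2: gctgttggacatctccgtgtcaccactgat
Arid2 probe 1: ccaagccacacatgaaaacttgtctcatta
Arid2 probe 2: ggattcactaataatacaaccacactttaa

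The Smarca4 probes also disagree and are shown by their last 30 bases. The capitals mark the hexamer AATAAA, the commonest polyadenylation signal. Smarca4 probe 1 lies on chr9:21507751-21507810 and Smarca4 probe 2 on chr9:21483531-21483590, 24220 bp apart on the plus strand. Smarcc1 probe 1, on chr9:110140717-110140776 on the plus strand, is shown by its first 30 bases, since it was the only saturated member probe, and its capitals mark runs of alternating C and T. The probes of Smarca2 and Smarcb1 hold AATAAA too, so that it occurred in 3 of the 19 member probes, against 12.6% of all probes.
Smarca4 probe 1: gacagtAATAAAttaaagcaatgacaagcc
Smarca4 probe 2: cgactcactgacagagaagcagtggctcaa
Smarcc1 probe 1: gtgtgtaTCTCTCTCTgTCTCTCTCTCTCT

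All 10 genes had a brightest probe well above background in all 4 channels, so all 10 entered every comparison by that probe. The widest difference was a low reading of Arid1a, a DNA-binding subunit that defines the canonical complex, in the Oct4-EGFP clone. Its level there was 3.54-fold below that of the Nr5a2-EGFP clone, and 3.67-fold below that of the EGFP clone through the shared Nr5a2-EGFP sample. By their brightest probes, Arid2, Smarca2, Smarce1 and Smarcc2 were also lowest in the Oct4-EGFP clone, by less. Arid1b was lowest there by less than the spread between readings. The dimmer Arid2 probes did not share this order, and the second Smarce1 probe gave only -0.02 in Oct4-EGFP over EGFP. Smarcb1 and Smarcd1 were highest there, as was the saturated Smarcc1 probe. In such bulk samples, less RNA per cell cannot be told apart from fewer cells of a type. Between the Nr5a2-EGFP and EGFP clones, 9 of the 10 genes had log2 ratios between -0.48 and 0.55. The exception was Smarca4, and the low Smarca4 value was not repeated in the second reading of the same clone.

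**Figure D1:**
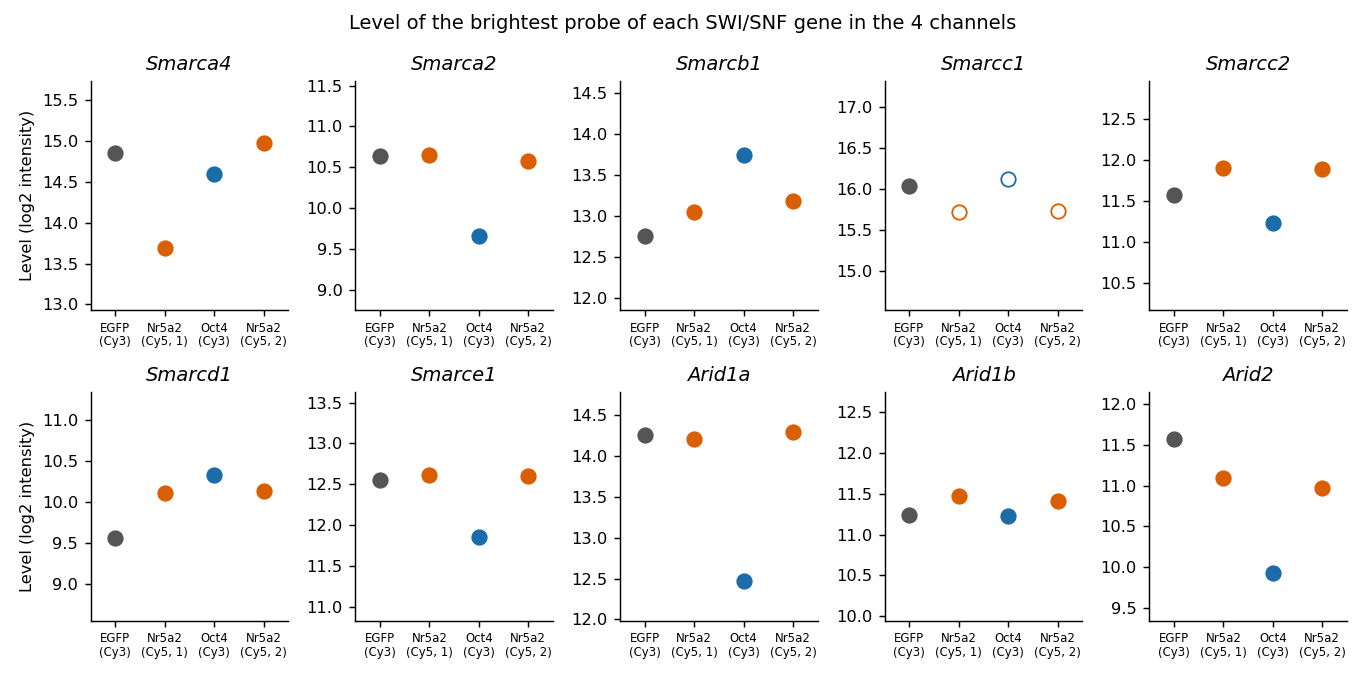
Level of the brightest probe of each gene (vertical axis, log2 intensity after scaling between arrays, each panel with its own range) in the 4 channels, with Nr5a2 (Cy5, 1) from the EGFP array and Nr5a2 (Cy5, 2) from the Oct4 array. Open circles are saturated. The Oct4-EGFP point lies lowest for Arid1a (12.47), Arid2 (9.93) and Smarca2 (9.66), and the orange points of a gene lie close together except for Smarca4 (13.69 and 14.98).

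A gene was counted as apart when its log2 ratio was at least 1 either way, which is 2-fold. In the Nr5a2-EGFP clone over the EGFP clone, 0 of the 10 genes were higher by this rule, against 3.34% of the 25998 genes measured, and 1 of the 10, Smarca4, was lower, against 5.07%. The median log2 ratio of the 10 was 0.03, the same as over all genes, and their range was -1.17 to 0.55. In the Nr5a2-EGFP clone over the Oct4-EGFP clone, 2 of 10 were higher (Arid1a and Arid2), against 4.54% of 26095 genes, and 0 were lower, against 7.11%. The median of the 10 was 0.52 against 0.01 over all genes. In the Oct4-EGFP clone over the EGFP clone, which is the difference of both direct ratios, 3 of 10 were lower (Arid1a, Arid2 and, by 1 of its readings, Smarca4), against 5.85% of 26340 genes, and 0 were higher, against 6.48%. The median was -0.51 against 0.02. The medians of 10 widely used reference genes (Gapdh, Hprt, Tbp and others) lay on the same sides, at 0.36 in Nr5a2-EGFP over Oct4-EGFP and -0.36 in Oct4-EGFP over EGFP. Since both comparisons with the Oct4-EGFP clone use its 1 Cy3 sample, their values are not separate evidence.

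A looser rule of 1.5-fold left the first comparison at 0 higher and 1 lower, where 12.6% and 14.2% of all genes passed. It gave 5 of 10 higher and 0 lower in Nr5a2-EGFP over Oct4-EGFP, against 12.7% and 16% of all genes. The 5 were Arid1a, Arid2, Smarca2, Smarce1 and Smarcc2. In Oct4-EGFP over EGFP it gave 2 higher (Smarcb1 and Smarcd1) and 5 lower (Arid1a, Arid2, Smarca2, Smarca4 and Smarce1), against 15.9% and 14.4%. By their second probes, Smarca4 (0.02) and Smarce1 (-0.02) did not pass in that comparison. Among themselves the 10 genes spread by a log2 SD of 0.96 in Oct4-EGFP over EGFP, against 0.69 over all genes, and of 0.50 in Nr5a2-EGFP over EGFP, against 0.59. Both SDs include Smarca4 by its reading on the EGFP array. In Nr5a2-EGFP over EGFP its ratio was -1.17 by that reading and 0.12 by the other.

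**Figure D2:**
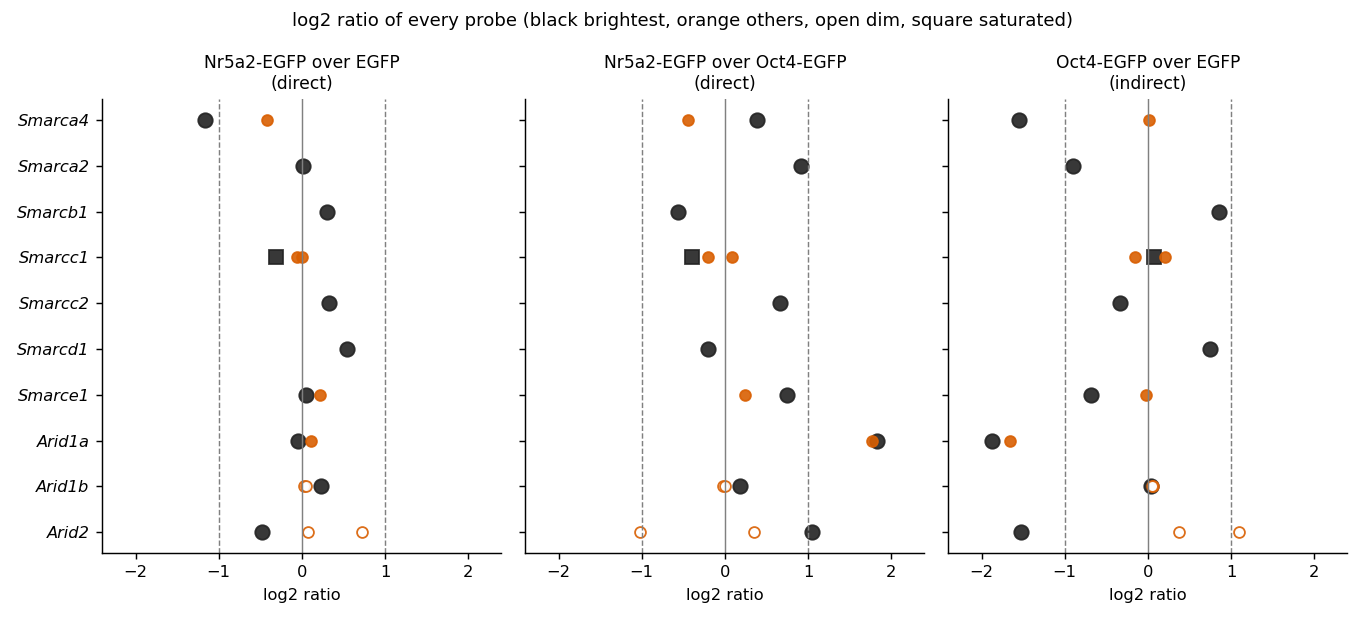
Log2 ratio (horizontal axis) of every probe of the 10 genes in the 3 comparisons. Black marks are the brightest probe of a gene, orange marks its other probes, open marks probes that were not well above background in all channels, and the square is the saturated Smarcc1 probe; dashed lines mark 2-fold. Both Arid1a probes lie together near 1.8 in the middle panel, while the probes of Smarca4 and Arid2 lie apart.

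The motors come first. Smarca4, the ATPase of the ES cell complex, had log2 levels of 14.86 (EGFP), 13.69 and 14.98 (Nr5a2-EGFP, EGFP array and Oct4 array) and 14.59 (Oct4-EGFP). Its readings of the same clone thus differed by -1.29, further than any clone lay from another by the second reading. Only 246 genes (0.964%) had readings as far apart, and 1.72% were at least 2-fold apart. The processed intensities deposited in the files showed the same gap, with 39013 (EGFP), 16700 (Nr5a2-EGFP), 27085 (Oct4-EGFP) and 31383 (Nr5a2-EGFP, Oct4 array).

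The Smarca4 ratios depend on which reading is used. On its own array, Nr5a2-EGFP over EGFP was -1.17, or 2.25-fold lower, and with the reading of the Oct4 array it was 0.12. Nr5a2-EGFP over Oct4-EGFP was 0.39 on its own array and -0.91 with the other reading. Oct4-EGFP over EGFP was -1.56 by the difference of ratios and -0.26 from the Cy3 levels. The 2-fold counts of Smarca4 in both comparisons with the EGFP clone thus hold only where the reading of the EGFP array enters.

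The second Smarca4 probe gave a steadier picture. It read 10.60 (EGFP), 10.18 and 10.22 (Nr5a2-EGFP) and 10.65 (Oct4-EGFP), with readings that differed by -0.03. By it, the Nr5a2-EGFP clone was lower than both other clones, at log2 ratios of -0.42 and -0.44, and Oct4-EGFP over EGFP was 0.02. Over all genes with a pair of probes well above background everywhere, such probes differed by a median of 0.36 in Nr5a2-EGFP over EGFP, and by at least 1 in 12.8% of 4377 genes.

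Smarca2, the ATPase that ES cells are known to use little, was low in the Oct4-EGFP clone. Its log2 levels were 10.64 (EGFP), 10.65 and 10.57 (Nr5a2-EGFP) and 9.66 (Oct4-EGFP), on chr19:26852751-26852810 on the plus strand. The other 3 channels lay within 0.08 of each other. Nr5a2-EGFP over Oct4-EGFP was 0.91, or 1.88-fold higher, just short of 2-fold, and 5.44% of all genes were as high. Oct4-EGFP over EGFP was -0.90 through the shared sample and -0.98 from the Cy3 levels, and 7.26% of genes were as low. With the software's own ratio both passed the 2-fold line, the first at 1.05. Between the ATPases, the log2 ratio of Smarca4 minus that of Smarca2 was -1.18 in Nr5a2-EGFP over EGFP, a gap that rests on the lower Smarca4 reading.

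The core subunits differed among themselves. Smarcb1, the small core subunit that contacts the nucleosome, had log2 levels of 12.76 (EGFP), 13.05 and 13.18 (Nr5a2-EGFP) and 13.74 (Oct4-EGFP), on chr10:75359522-75359581 on the minus strand. It was thus highest in the Oct4-EGFP clone and lowest in the EGFP clone. Nr5a2-EGFP over EGFP was 0.30, Nr5a2-EGFP over Oct4-EGFP -0.56, and Oct4-EGFP over EGFP 0.86, or 1.81-fold higher, with 8.81% of genes as high. From the Cy3 levels that last value was 0.99.

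Smarcd1, which links the complex to transcription factors, had the same order of clones. Its log2 levels were 9.56 (EGFP), 10.10 and 10.13 (Nr5a2-EGFP) and 10.33 (Oct4-EGFP), on chr15:99543759-99543817 on the plus strand. It was 1.46-fold higher in the Nr5a2-EGFP than the EGFP clone (log2 0.55, the highest of the 10), and 1.68-fold higher in the Oct4-EGFP than the EGFP clone (0.75). Between the Nr5a2-EGFP and Oct4-EGFP clones it lay at -0.20, inside the SD of 0.30 between readings.

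Smarcc1 and Smarcc2 are alternative scaffold subunits, Smarcc1 being the one typical of ES cells. The bright Smarcc1 probe read 16.03 (EGFP), 15.72 and 15.73 (Nr5a2-EGFP) and 16.12 (Oct4-EGFP), and it was saturated in every channel but that of the EGFP clone. Its ratios of -0.31, -0.39 and 0.08, in the order of the comparisons above, are therefore limited by the scanner. Of 27 probes with a C and T run of 10 bases, 29.6% were saturated in a channel, against 3.15% of all probes. Their median log2 level was 13.28, against 8.96. Whether the signal of the bright Smarcc1 probe is specific to Smarcc1 was not tested. The unsaturated Smarcc1 probe 2 read 9.05, 8.99, 8.88 and 8.97 in the EGFP, Nr5a2-EGFP, Oct4-EGFP and second Nr5a2-EGFP channels. Smarcc1 probe 3 read 8.72, 8.72, 8.94 and 8.73. The ratios of these 2 probes lay between -0.21 and 0.20 in all 3 comparisons, so Smarcc1 was within the spread between readings by its unsaturated probes.

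Smarcc2 read 11.58 (EGFP), 11.91 and 11.89 (Nr5a2-EGFP) and 11.23 (Oct4-EGFP), on chr10:127926650-127926709 on the plus strand. It was highest in the Nr5a2-EGFP clone, 1.58-fold above the Oct4-EGFP clone (log2 0.66), with 10.3% of genes as high, and 0.33 above the EGFP clone. Oct4-EGFP over EGFP was -0.34. The log2 ratio of Smarcc1 minus that of Smarcc2 was -1.05 in Nr5a2-EGFP over Oct4-EGFP by the brightest probes, of which the Smarcc1 probe was saturated.

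Smarce1, which carries an HMG box that binds DNA, was lowest in the Oct4-EGFP clone by its brighter probe. That probe read 12.55 (EGFP), 12.61 and 12.60 (Nr5a2-EGFP) and 11.86 (Oct4-EGFP), on chr11:99070435-99070494 on the minus strand. Nr5a2-EGFP over Oct4-EGFP was 0.74, or 1.67-fold higher, and Oct4-EGFP over EGFP -0.69, or 1.61-fold lower. The second Smarce1 probe, 912 bp away, read 11.06, 11.28, 10.94 and 11.18 in the EGFP, Nr5a2-EGFP, Oct4-EGFP and second Nr5a2-EGFP channels. Its ratios were 0.24 and -0.02, so the difference was not shared by both probes.

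Arid1a showed the widest difference of the 10 genes. Probe 1 had log2 levels of 14.26 (EGFP), 14.21 and 14.30 (Nr5a2-EGFP) and 12.47 (Oct4-EGFP), and processed intensities of 27766, 25044, 5994 and 21306 in the order EGFP, Nr5a2-EGFP, Oct4-EGFP, second Nr5a2-EGFP. Probe 2, 1182 bp away, had log2 levels of 12.29, 12.40, 10.58 and 12.35 in the same order. By both probes the Oct4-EGFP channel was low and the other 3 were alike to within 0.11. Nr5a2-EGFP over Oct4-EGFP was 1.82 by probe 1 (3.54-fold) and 1.77 by probe 2 (3.41-fold). Of all genes, 217 (0.832%) were as high.

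Oct4-EGFP over EGFP was -1.87 for Arid1a by probe 1 (3.67-fold lower) and -1.66 by probe 2 (3.16-fold lower), and 256 genes (0.972%) were as low. Taken from the Cy3 levels, the values were -1.79 and -1.71. The Nr5a2-EGFP readings still enter these levels through the normalization within and between arrays. Nr5a2-EGFP over EGFP was -0.05 and 0.11, within the spread between readings. Among the alternatives tried, Nr5a2-EGFP over Oct4-EGFP for Arid1a ranged from 1.74 to 2.05, and Oct4-EGFP over EGFP from -1.98 to -1.77.

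Arid1b, which takes the place of Arid1a in part of the canonical complexes, did not share this difference. Its brightest probe read 11.25 (EGFP), 11.47 and 11.41 (Nr5a2-EGFP) and 11.22 (Oct4-EGFP), on chr17:5343084-5343143 on the plus strand. Its ratios of 0.23, 0.18 and 0.04 all lay inside the SD of 0.30 between readings. The other Arid1b probes, 21742 and 216119 bp away, were not well above background in any channel and give no ratio. In Nr5a2-EGFP over Oct4-EGFP, the log2 ratio of Arid1a minus that of Arid1b was thus 1.64, and in Oct4-EGFP over EGFP -1.92, as a description of 1 probe of each.

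Arid2, the subunit that defines PBAF, was low in the Oct4-EGFP clone by its brightest probe. That probe read 11.57 (EGFP), 11.09 and 10.97 (Nr5a2-EGFP) and 9.93 (Oct4-EGFP), so the EGFP clone was highest and the Nr5a2-EGFP clone between. Nr5a2-EGFP over Oct4-EGFP was 1.05 (2.07-fold higher, with 4.09% of genes as high), just past the 2-fold line. Oct4-EGFP over EGFP was -1.53 (2.88-fold lower, with 1.91% as low) and -1.64 from the Cy3 levels. Nr5a2-EGFP over EGFP was -0.48, or -0.60 with the other reading.

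The dimmer Arid2 probes did not share this order. Probe 2, 508 bp away, was well above background in the Oct4-EGFP channel only, with processed intensities of 22.9 (EGFP), 27.2 (Nr5a2-EGFP), 146 (Oct4-EGFP) and 42.7 (second Nr5a2-EGFP). By it the level in the Nr5a2-EGFP clone lay at least 2.02-fold below that in the Oct4-EGFP clone, the opposite direction to probe 1. This bound sets the bright level against the lowest level of any probe well above background or the dim probe's own level, whichever is higher. Probe 3, 116938 bp away, was well above background in both Nr5a2-EGFP channels only. By it the level there was at least 1.34-fold above the EGFP clone and at least 1.25-fold above the Oct4-EGFP clone.

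**Figure D3:**
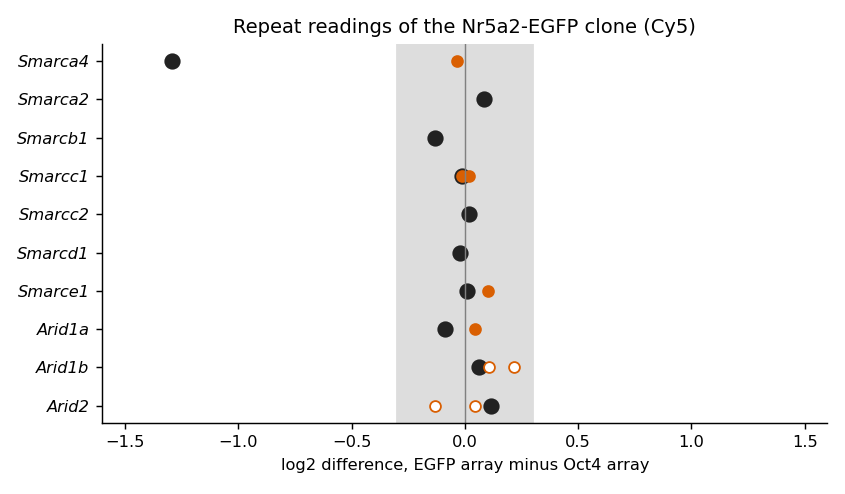
Difference between the repeated Cy5 readings of 1 clone, Nr5a2-EGFP (horizontal axis, log2 level on the EGFP array minus that on the Oct4 array) for every probe of the 10 genes, with marks as in the plot of probe ratios and the grey band at ± 1 SD (0.30) over all genes. The bright Smarca4 probe lies at -1.29, outside the band, and the brightest probes of the other 9 genes lie between -0.13 and 0.11.

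Setting the 4 levels side by side, with both Nr5a2-EGFP readings averaged, 6 of the 10 genes were lowest in the Oct4-EGFP clone, 2 in the EGFP clone and 2 in the Nr5a2-EGFP clone. Of 23779 genes well above background in all 4 channels, 36.7% were lowest in the Oct4-EGFP clone, 34.9% in the EGFP clone and 28.4% in the Nr5a2-EGFP clone. Of 21 other genes of SWI/SNF complexes, 8 were lowest in the Oct4-EGFP clone, 7 in the EGFP clone and 6 in the Nr5a2-EGFP clone. The place of Arid1b as lowest in the Oct4-EGFP clone rests on a gap of 0.02. The places of Smarca4 and Smarcc1 as lowest in the Nr5a2-EGFP clone rest on the average of readings that differ by -1.29 and on a saturated probe.

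Genes around the low members were examined after the values were seen. Within 2 Mb of Arid1a on mm9, 111 genes had a median log2 ratio of 0.20 in Nr5a2-EGFP over Oct4-EGFP, of which 8 were at least 2-fold higher and 7 lower. Around Arid2, 38 genes had a median of 0.20, with 4 higher and 3 lower, and around Smarca2, 21 genes had a median of 0.03. Over all genes, 4.54% were higher and 7.11% lower.

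Arid1a and Smarca2 were low in the same clone, so their upstream sequence is shown, as RefSeq gives it for GRCm38.p6. Each is the 250 bases before a start site, on chr4:133756770-133757019 on the minus strand for the outermost start of Arid1a, and on chr19:26604910-26605159 on the plus strand for Smarca2. Windows of 300 bases, from 250 before to 50 after a start, were found for 8 of the 10 genes (not for Arid2 and Smarce1), 9 windows in all. They held between 22 and 48 CG dinucleotides, against a median of 7 over all such windows. The octamer ATGCAAAT, the site class of Oct4, and CAAGGTCA, the site class of Nr5a receptors, were searched on both strands. They occurred in 0 of the 9 windows, against 1.74% and 1.56% of 32851 windows. With shares so low, 0 of 9 was the likely outcome for any windows, so it says only that these letters are not there.
Arid1a upstream: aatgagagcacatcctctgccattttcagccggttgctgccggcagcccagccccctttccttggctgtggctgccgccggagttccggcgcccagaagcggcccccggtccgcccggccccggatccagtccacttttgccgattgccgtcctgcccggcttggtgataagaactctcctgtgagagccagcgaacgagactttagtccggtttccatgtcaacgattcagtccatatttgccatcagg
Smarca2 upstream: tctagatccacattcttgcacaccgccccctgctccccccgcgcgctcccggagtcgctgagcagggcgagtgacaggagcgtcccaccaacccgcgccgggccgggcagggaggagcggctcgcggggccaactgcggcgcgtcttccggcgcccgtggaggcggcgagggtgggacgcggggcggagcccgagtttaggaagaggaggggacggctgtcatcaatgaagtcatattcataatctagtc

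The other subunits put the 10 genes in their complexes. Of the 21, 20 were measured in Nr5a2-EGFP over EGFP. Smarcd2, an alternative to Smarcd1, was higher (log2 1.09, 2.14-fold), while Actl6a, the actin-related subunit of proliferating cells (-1.55, 2.93-fold), and Brd7, a bromodomain subunit of PBAF (-1.14, 2.20-fold), were lower. The median was -0.13. Brd7 came to -0.67 with the other reading, whereas Actl6a stayed at -1.51.

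In Nr5a2-EGFP over Oct4-EGFP, 2 of the 21 were higher, 1 was lower and the median was 0.07, by brightest probes. Over all genes, 4.54% were higher and 7.11% lower. Dpf1 was counted by a saturated probe (-0.43), while its other probe gave -2.42. Dpf3, a PHD-finger subunit of differentiated tissues, was higher by 2.16 (4.46-fold), with log2 levels of 10.32 (EGFP), 10.81 and 10.49 (Nr5a2-EGFP) and 8.33 (Oct4-EGFP). It thus had its low value in the same clone as Arid1a. Actb, the actin subunit and a cytoskeletal gene, was higher by 1.44 (1.04 by its other probe). Its readings differed by -0.82, and with the other reading the ratio came to 0.61, short of 2-fold. Smarcd3, the form of the Smarcd subunit known from heart and muscle, was lower by 1.78 (3.43-fold), since it was high in the Oct4-EGFP clone at 11.81, against 10.06 (EGFP), 9.85 and 10.03 (Nr5a2-EGFP).

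For Oct4-EGFP over EGFP, 1 of the 21 was higher, Smarcd3 (1.58), 4 were lower and the median was -0.18, where 6.48% of all genes were higher and 5.85% lower. The 4 were Actb (-1.77, or -0.94 from the Cy3 levels), Actl6a (-1.75), Dpf3 (-1.67) and the zinc-finger subunit gene Bcl11b (-1.22, or -0.42 by its other probe). Actl6a was therefore highest in the EGFP clone, at 12.69, against 11.14 and 11.18 (Nr5a2-EGFP) and 10.98 (Oct4-EGFP). Dpf1 was -0.04 by its saturated probe and 1.78 by its other probe.

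**Figure D4:**
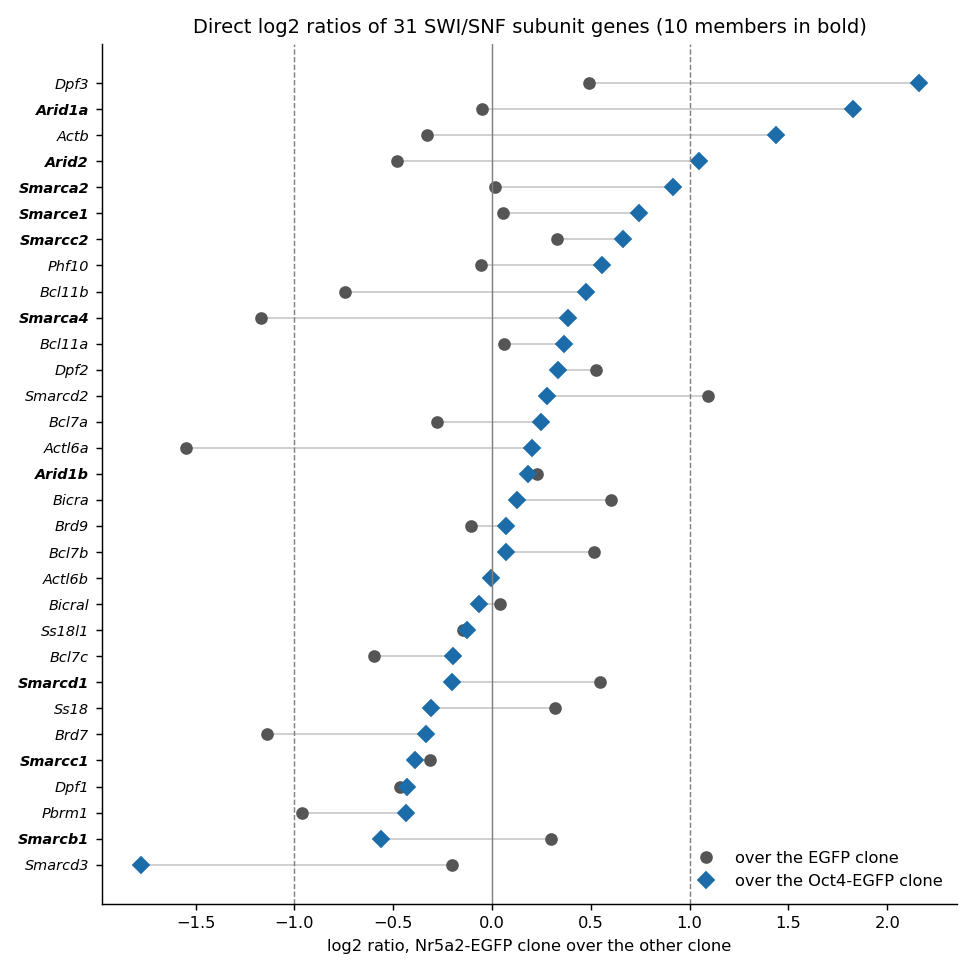
Direct log2 ratios (horizontal axis) of 31 SWI/SNF subunit genes by their brightest probe, the Nr5a2-EGFP clone over the EGFP clone (grey circles) and over the Oct4-EGFP clone (blue diamonds), with the 10 genes followed here in bold and dashed lines at 2-fold. Arid1a (1.82) lies next to Dpf3 (2.16) at the upper end of the blue diamonds, and its grey circle lies near 0. Dpf1 and Smarcc1 are drawn by saturated probes.

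Grouped by complex, no list had all its genes at least 2-fold apart in any comparison. Of 7 subunits typical of ES cell BAF (Smarca4, Smarcc1, Smarcd1, Arid1a, Actl6a, Dpf2 and Ss18), 0 were higher and 2 lower in Nr5a2-EGFP over EGFP, 1 was higher and 0 lower over Oct4-EGFP, and 0 were higher and 3 lower in Oct4-EGFP over EGFP. Their medians were -0.05, 0.20 and 0.08. Both counts of lower genes include Smarca4, which came to 0.12 with the other Nr5a2-EGFP reading and -0.26 from the Cy3 levels. Of all genes, 3.34% were higher and 5.07% lower in Nr5a2-EGFP over EGFP. The shares were 4.54% and 7.11% in Nr5a2-EGFP over Oct4-EGFP, and 6.48% and 5.85% in Oct4-EGFP over EGFP. Of 7 subunits typical of differentiated or neuronal BAF (Smarca2, Smarcc2, Smarcd3, Actl6b, Dpf1, Dpf3 and Ss18l1), 1 was higher and 1 lower in each comparison with the Oct4-EGFP clone, with medians of 0.00 and -0.04. Dpf1 entered by its saturated probe, and its other probe gave -2.42 and 1.78 in these comparisons. The 4 PBAF genes Arid2, Pbrm1, Brd7 and Phf10 had their highest level in the EGFP clone by their brightest probes, with medians of -0.72 in Nr5a2-EGFP over EGFP and -0.71 in Oct4-EGFP over EGFP. The second Pbrm1 probe gave 0.15 and 0.27 and the dim Arid2 probes were not highest there either, while Phf10 was only -0.06 from the EGFP clone in Nr5a2-EGFP over EGFP. Of the 3 genes of non-canonical BAF (Brd9, Bicra and Bicral), 0 were 2-fold apart in any comparison.

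Genes of the other remodeller families give a frame. Of 11 ISWI genes, 1 was higher in Nr5a2-EGFP over EGFP (Baz1b, 1.16, or 0.39 by its other probe; next came Baz2a, 0.98), and 1 over Oct4-EGFP (the ATPase Smarca1, 1.64, or 2.08 by its other probe; next came Baz1a, 0.80). In Oct4-EGFP over EGFP 1 was higher and 3 lower, led by Bptf (-1.57) and Baz1a (-1.34, or -0.60 and 0.04 by its other probes), and the medians were -0.31, 0.29 and -0.64. Of 20 CHD and NuRD genes, 0 were 2-fold apart over EGFP, where Rbbp7 (0.97) and Mta3 (-0.86) led. Over Oct4-EGFP 1 was higher (the histone-binding Rbbp7, 2.07, or 1.11 by its other probe) and 2 lower, led by Mta1 (-1.24). In Oct4-EGFP over EGFP 1 was higher and 2 lower (Mta3 -1.75, or -1.06 by its other probe, and Rbbp7 -1.10, or -0.49). Of 27 INO80, SRCAP and Tip60-p400 genes, 1 was lower over EGFP (Ino80c, -1.21; next came Ruvbl2, -0.96), 2 were higher over Oct4-EGFP (Trrap, 1.14, and Epc2, 1.13, or 0.49 by its other probe), and 1 was higher (Nfrkb, 1.17) and 2 lower (led by Ruvbl2, -1.34, or -0.69 from the Cy3 levels) in Oct4-EGFP over EGFP.

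Cell type markers also differed between the same clones. Of 24 pluripotency markers, 14 were at least 2-fold lower and 3 higher in Nr5a2-EGFP over Oct4-EGFP, and of 21 trophoblast markers measured, 16 were higher and 0 lower, with medians of -1.44 and 2.04. In Oct4-EGFP over EGFP the trophoblast median was -2.01, with 0 of 21 higher and 16 lower. The pluripotency median there was 0.84, with 11 of 24 higher and 4 lower. In Nr5a2-EGFP over EGFP the pluripotency and trophoblast medians were -0.16 and 0.23. Markers of primitive endoderm (11 measured) had 2 higher and 1 lower over Oct4-EGFP, of fibroblasts and feeders (11 measured) 0 and 1, and of neural cells (8 measured) 1 and 2. In Oct4-EGFP over EGFP these lists had 1 higher and 4 lower, 1 and 0, and 2 and 1. Over all genes, 4.54% were higher and 7.11% lower in Nr5a2-EGFP over Oct4-EGFP, and 6.48% and 5.85% in Oct4-EGFP over EGFP. The part of these differences in the low Arid1a and Smarca2 levels of the Oct4-EGFP clone, and in the low level of the brightest Arid2 probe there, was not tested.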

How the data were processed

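The 2 arrays (Agilent design 026655, probe positions on mm9 per the file headers) share a slide and a scan. Spot intensity values were deposited as written by Agilent's Feature Extraction software. Its version is 10.7.3.1 per the file headers and 9.3.2.1 per the submitters' processing notes. The software subtracted background and normalized dyes to give the processed intensity and the log10 ratio of Cy5 over Cy3, per the file headers. The value table that the authors deposited gives log2 ratios of unstated centring (medians 0.03 and 0.05), and it followed the software's ratio at r = 0.997 and 0.996 with slopes of 0.99, which settles its direction and log base.

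Here, mean and background signals were corrected with normexp (offset 50) and normalized by loess within arrays in limma 3.58.1 (R 4.3.3). Control spots and 530 and 523 outlier spots had no weight and were then left out. Channels were scaled between arrays by Aquantile. Direct ratios are open to dye bias. Among spots of the 399 probes printed 10 times, the median log2 SD was 0.068 and 0.066, and the number of arrays limits all other precision. A gene was read by its probe of highest mean intensity and entered a comparison if at least 1 of its channels was well above background. The files' gene names were updated through RefSeq accessions (66.1% of probes matched, all 19 member probes among them). Background correction and normalization were run on simulated arrays for the direct ratios. That run did not test the probe rule, the filter, saturation or the indirect comparison.

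The 10 genes and all lists were chosen with earlier results of these data known. Named were all member probes, other subunits at least 2-fold apart, and the 2 genes of largest absolute ratio in each other remodeller list, beside genes needed to read a count. Alternatives covered background correction, scaling, the value table, the filter, the probe rule, saturation, the size rule and the other Nr5a2-EGFP reading.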

Additional observations from a re-analysis of the deposited data

How the results depend on the processing

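The 10 genes and their medians gave 330 alternative values. Of these, 303 lay within 1 SD of the readings (0.30) of the reported value, 25 moved further and 2 that were past 2-fold changed sign. The 2 were Smarca4 in Nr5a2-EGFP over EGFP (0.12 with the other Nr5a2-EGFP reading) and Arid2 in Oct4-EGFP over EGFP (0.38 by the median over its probes, of which 2 are dim). Some of the 303 were fixed by construction. Leaving out the filter changed none of the 10 genes, and leaving out saturated spots changed only Smarcc1. Averages over probes could not change the 4 genes read by 1 probe. Of smaller values of at least 0.30, Smarca4 in Nr5a2-EGFP over Oct4-EGFP became -0.91 with the other reading and -0.03 over both probes, Arid2 in Nr5a2-EGFP over EGFP 0.11 and 0.08 by the mean and median over probes, and Smarcc1 in Nr5a2-EGFP over Oct4-EGFP 0.09 without saturated spots. In Nr5a2-EGFP over EGFP, the count of lower genes became 0 with the other reading, the mean or median over probes, median centring, and the mean over probes well above background in all channels, an alternative added after seeing the data. In Nr5a2-EGFP over Oct4-EGFP, the count of higher genes became 1 by the mean or median over probes, 3 with the software's ratio or the value table and 5 at 1.5-fold. In Oct4-EGFP over EGFP, the count of lower genes became 1 by the mean or median over probes, 2 with the Cy3 levels or the added mean, 4 with the software's ratio or the value table and 5 at 1.5-fold, and that of higher genes 2 at 1.5-fold. The cause was not tested beyond what these settings change by construction. The medians over the 10 genes ranged from 0.03 to 0.24, from 0.09 to 0.67 and from -0.53 to -0.14 in the 3 comparisons. Median centring put 63.5% of all 2-fold calls in Nr5a2-EGFP over EGFP on the higher side, against 39.8%, with the median of all genes at 0.16 in place of 0.03. No paired analysis was possible because each group is 1 array, which leaves no residual degrees of freedom for a block. For dim probes such as those of Arid1b and Arid2, signal over background limits what can be read.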
